A study of Homo sapiens with 9 samples.

Results

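The genes described here are 9 lineage genes of the B-cell and myeloid branches of blood formation, examined in RPMI-8402, a human T-cell acute lymphoblastic leukaemia line. They were chosen by name from 20037 protein-coding genes, with earlier results of these data known. They are 5 B-cell genes (PAX5, EBF1, CD79A, CD79B and BLK) and 4 myeloid genes (CEBPA, CEBPB, MPO and IRF8). Each gene was examined in a window of its RefSeq gene body and 50 kb to each side on GRCh38. Chromatin immunoprecipitation with sequencing (ChIP-seq), which sequences DNA recovered with an antibody, was run with antibody ab76013 against the homeodomain factor NKX2-1. The clones named WT10, WT13, WT28 and WT30 are wild type (WT). Of C12, C15, S04 and S36 the genotype given is NKX2-1, and they are taken as knockouts because the design text lists them so. A single library for H3K27ac, a histone H3 acetylation that marks active promoters and enhancers, names no clone and has NKX2-1 in its genotype field. The labels give no treatment, and all groups are the same line. Each clone gave 1 library, so a comparison of genotypes measures the spread between clones and libraries together. The stated purpose was to map the sites that NKX2-1 occupies.

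B-cell and myeloid cells arise from progenitors that T cells share in part, and each branch is held by its own transcription factors. EBF1 and PAX5 start and fix the B-cell programme, whose products include CD79A and CD79B, the signalling chains of the B-cell receptor, and BLK, a kinase of the Src family downstream of it. CEBPA and IRF8 direct granulocyte and monocyte differentiation, CEBPB acts in activated myeloid cells and in stress responses of many tissues, and MPO encodes the myeloperoxidase of neutrophil granules. In T-cell leukaemia such genes are usually silent, with exceptions in immature cases.

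H3K27ac peaks were found within 50 kb of 5 of the 9 genes, PAX5, CD79A, BLK, CEBPB and MPO (55.6%), and within the body of 2, BLK and CEBPB (22.2%). Over all protein-coding genes the shares were 44.8% in the window and 21.2% in the body, so the genes lay near the background in both. EBF1, CD79B, CEBPA and IRF8 had 0 H3K27ac peaks in their windows. Within 10 kb, 4 of the 9 had a peak, against 29.0% of protein-coding genes. The H3K27ac list held 9857 peaks on chromosomes 1 to 22, X and Y, and 11 of them lay in the 9 windows. Only 3 of the 11 touched the gene itself, and none was shared by the windows of 2 of the genes. Depth is unknown for every library, so a window without a peak is one where none was called. The H3K27ac library has no replicate, and its values are a description without a test.

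**Figure D1:**
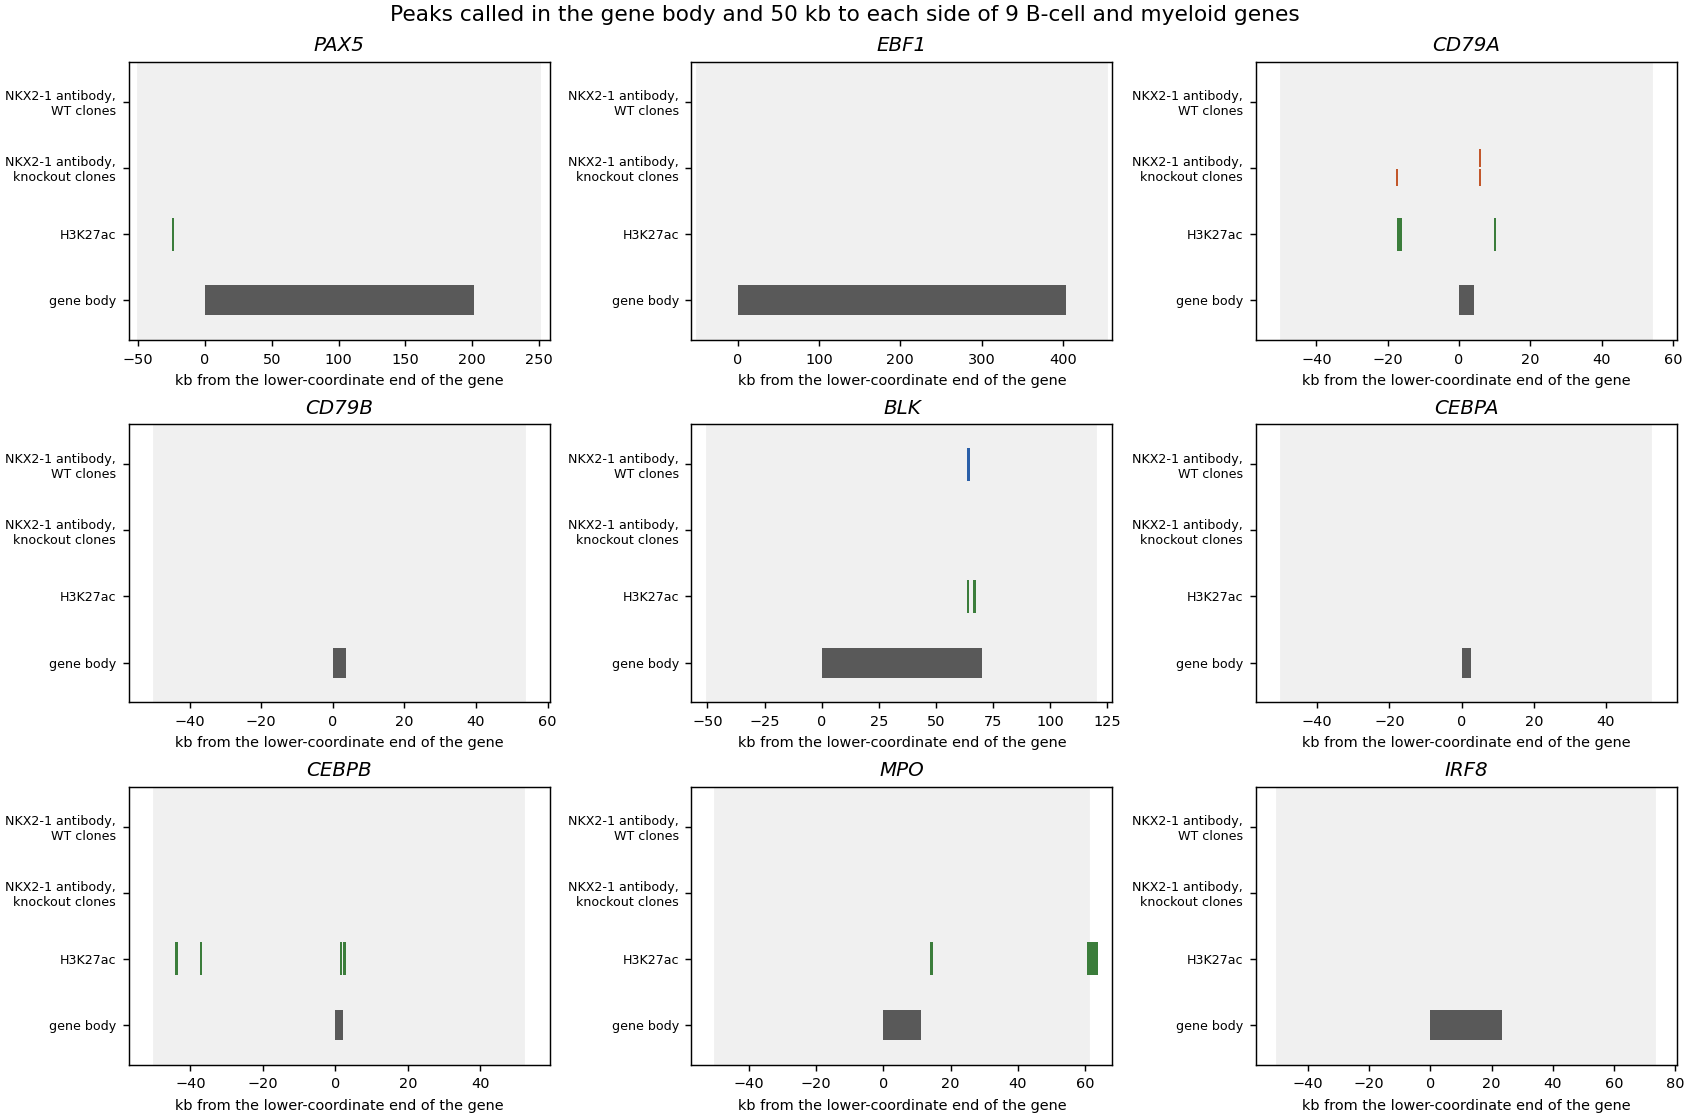
Peaks in the windows of the 9 genes, drawn in kb from the lower-coordinate end of each gene (grey area: gene body and 50 kb to each side; peaks are drawn to a minimum width). The knockout row shows C15 above S36; EBF1, CD79B, CEBPA and IRF8 hold no peak of any kind, CD79A holds 3 calls in knockout clones and BLK holds 1 in a WT clone.

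The 2 master factors of the B-cell branch carried almost no H3K27ac. By number of peaks alone, 55.2% of protein-coding genes had fewer in the window than PAX5, that is none, like EBF1. Window length was not allowed for in that share. The median window of protein-coding genes was 124.1 kb, shorter than those of PAX5 and EBF1. PAX5 (chromosome 9, 36833269 to 37034268, minus strand) had 1 peak in its 301.0 kb window, at 36809423 to 36809622. It was 200 bp wide, had a deposited enrichment of 5.21-fold over the background of the peak caller, and lay 23647 bp beyond the 3′ end of the gene, inside the long non-coding gene LOC105376030. It ranked 8117 of 9857 in the H3K27ac list by enrichment. EBF1 (chromosome 5, 158695920 to 159099916, minus strand) had 0 peaks in 504.0 kb, the longest window of the 9, and its nearest H3K27ac peak was 1160 kb away. No NKX2-1 antibody library called a peak in either window. The nearest call in any of the 8 libraries was 6280 kb from PAX5 and 11200 kb from EBF1.

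The RefSeq promoter window found for EBF1, from 250 bases before to 50 after an annotated start, is shown. It was the 1 promoter among the 8 windows found for these genes that held the letters CAAGTG. That is the core that NK2-class homeodomain proteins such as NKX2-1 recognise. The window lies at chr5:159097907-159098206 on GRCh38.p14, minus strand, and the match is in capitals. It falls inside the gene body, whose 5′ end is at 159099916, so its start is an internal one and not the end of the gene.
EBF1: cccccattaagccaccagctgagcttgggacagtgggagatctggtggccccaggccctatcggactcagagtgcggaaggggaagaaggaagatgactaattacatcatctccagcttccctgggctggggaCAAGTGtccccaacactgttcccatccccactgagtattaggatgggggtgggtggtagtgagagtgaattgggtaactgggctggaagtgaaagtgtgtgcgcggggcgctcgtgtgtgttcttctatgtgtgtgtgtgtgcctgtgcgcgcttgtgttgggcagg
Of 22183 promoter windows of protein-coding genes, 10.4% held CAAGTG or its reverse complement. The match is a description of the sequence, and the libraries had no call there.

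CD79A and CD79B encode partner chains of the same receptor but lay in different surroundings. CD79B (chromosome 17, 63928740 to 63932331) shared its window with 5 other protein-coding genes, GH1, GH2, CSH1, CSHL1 and SCN4A, and had 0 peaks of any kind in it. The nearest H3K27ac peak was 73440 bp away, and the window widened to 100 kb held 6. The nearest call of an NKX2-1 antibody library was 108 kb away. CD79A (chromosome 19, 41877279 to 41881372, plus strand) also had 5 coding neighbours, among them RPS19, a ribosomal protein gene, and ARHGEF1, which encodes a guanine nucleotide exchange factor for the GTPase RhoA used in lymphocyte migration.

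CD79A itself had no peak of any kind in its body, and each of the 5 peaks in its window lay at a neighbour. The stronger H3K27ac peak (41859900 to 41861265, 1366 bp, 11.7-fold) covered the start of RPS19 and ranked 412 of 9857. The other (41887193 to 41887500, 308 bp, 5.42-fold) lay within ARHGEF1, 5821 bp from CD79A, and ranked 7859. Both belonged to the windows of several genes: the first to those of 7 protein-coding genes and the second to those of 6.

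NKX2-1 antibody calls near CD79A came from knockout clones. C12, C15, S04 and S36 had 0, 1, 0 and 2 peaks in the window, and the 4 WT clones had 0 each. C15 called 41883139 to 41883363 (225 bp, 5.42-fold) and S36 called 41883089 to 41883344 (256 bp, 7.22-fold), which overlap at the start of ARHGEF1. S36 also called 41859677 to 41860026 (350 bp, 5.33-fold), which reached the RPS19 promoter and shared 127 bp with the H3K27ac peak there. The ARHGEF1 calls shared no base with H3K27ac. The difference of 2 of 4 knockout against 0 of 4 WT clones gave p = 0.429 in Fisher's exact test, two-sided, and an adjusted p of 1 over the 1124 protein-coding genes that had a call in at least 1 library (Benjamini-Hochberg). Without S36, C15 still had its call. The same set of libraries, C15 and S36 without the other 6, was called at 19 protein-coding genes (0.0948%), CD79A included, several of which share these same peaks.

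The promoter windows of the 2 neighbours are shown because the knockout calls fell on them, with bases under the calls in capitals. For ARHGEF1 (chr19:41882934-41883233, plus strand) the capitals mark the 95 bases under both the C15 and the S36 peak, and the 50 bases before them, under the S36 peak alone, are in lower case. For RPS19 (chr19:41860005-41860304, plus strand) they mark the 22 bases under the S36 peak. CD79A (chr19:41877029-41877328, plus strand) is set beside them, with capitals for its match to TGTGGT, the core recognised by RUNX factors, read on the opposite strand.
ARHGEF1: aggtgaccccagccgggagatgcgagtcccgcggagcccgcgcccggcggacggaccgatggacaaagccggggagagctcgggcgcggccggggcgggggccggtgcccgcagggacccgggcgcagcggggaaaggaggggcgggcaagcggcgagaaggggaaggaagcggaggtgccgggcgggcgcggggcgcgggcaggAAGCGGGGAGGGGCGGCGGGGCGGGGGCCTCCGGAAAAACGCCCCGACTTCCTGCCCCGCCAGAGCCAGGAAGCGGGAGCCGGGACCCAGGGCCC
RPS19: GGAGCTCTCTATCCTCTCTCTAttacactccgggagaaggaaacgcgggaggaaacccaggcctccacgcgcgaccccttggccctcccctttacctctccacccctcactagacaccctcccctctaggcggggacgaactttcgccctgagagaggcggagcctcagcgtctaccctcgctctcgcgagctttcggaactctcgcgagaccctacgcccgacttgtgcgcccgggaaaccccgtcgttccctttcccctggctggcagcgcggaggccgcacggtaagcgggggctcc
CD79A: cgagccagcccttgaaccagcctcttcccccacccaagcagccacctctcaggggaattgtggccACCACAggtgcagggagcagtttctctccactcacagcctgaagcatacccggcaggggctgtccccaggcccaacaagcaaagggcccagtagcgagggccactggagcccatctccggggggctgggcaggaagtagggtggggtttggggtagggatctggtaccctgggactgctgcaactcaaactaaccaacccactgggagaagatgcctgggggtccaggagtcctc
Neither the ARHGEF1 nor the RPS19 window held the NK2 or the RUNX core on either strand. The RUNX core was found, counting both strands, in 11.3% of the 22183 promoter windows, and a window of IRF8 also held it. The 3 windows shown also differ in CG dinucleotides, the pairs typical of housekeeping promoters: ARHGEF1 has 41, RPS19 28 and CD79A 4, against a median of 21 over all windows. Further windows, not shown, have 44 for RPS19 and 31 and 30 for ARHGEF1.

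BLK was the B-cell gene with H3K27ac in its body, and the gene with a WT call. BLK (chromosome 8, 11494387 to 11564599) is also transcribed in some immature T cells. Its H3K27ac peaks lay at 11558038 to 11558680 (643 bp, 7.41-fold, rank 2468 of 9857) and at 11561058 to 11561367 (310 bp, 5.94-fold, rank 5351), both near the end of the gene with the higher coordinate. The first also overlapped the antisense gene BLK-AS1, and it had no protein-coding gene but BLK within 50 kb. WT10 called an NKX2-1 antibody peak at 11558607 to 11558806 (200 bp, 5.27-fold), which shared 74 bp with the first H3K27ac peak.

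The other 3 WT clones and all 4 knockout clones had 0 peaks in the BLK window. Fisher's exact test for 1 of 4 against 0 of 4 gave p = 1 and an adjusted p of 1. The call stood at rank 698 of the 1144 peaks of WT10, in the weaker part of that list. The WT-only list repeated it with the same ends, as the only region of that list in any of the 9 windows, and the combined list had none there. In all, 250 protein-coding genes (1.25%) were called in WT10 and in no other library.

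Among the myeloid genes, CEBPB had the most H3K27ac. CEBPB (chromosome 20, 50190583 to 50192690, plus strand) had 4 peaks in its window, a number that 9.46% of protein-coding genes reached or exceeded. The strongest (50191716 to 50192437, 722 bp, 9.85-fold, rank 813 of 9857) lay in the 3′ part of this short gene and over the promoter of its antisense neighbour CEBPB-AS1. Another (50192829 to 50193267, 439 bp, 6.92-fold) lay 139 bp past the gene's 3′ end. The last 2 lay 37034 and 43597 bp to the 5′ side, within PEDS1, with 5.08-fold and 7.59-fold. None of the 4 reached either RefSeq promoter window of CEBPB. The 8 NKX2-1 antibody libraries had 0 calls in the window, the nearest being 174 kb away in a knockout clone.

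CEBPA, the founding regulator of the granulocyte branch (chromosome 19, 33299934 to 33302534, minus strand), had 0 peaks of any kind. No other protein-coding gene lay in its window, the nearest H3K27ac peak was 123051 bp away, and widening the window to 100 kb added none. Its promoter (chr19:33302485-33302784, minus strand) is shown because it has 50 CG dinucleotides, more than 98.4% of promoter windows. It carried no H3K27ac call, as did most: 10.4% of 15843 protein-coding genes had a peak over a promoter window. It holds no match to the NK2 core or the RUNX core. Nor does it hold GAGGAA, a core recognised by PU.1 and found on either strand in 27.9% of windows, that of PAX5 among them. No base is therefore in capitals.
CEBPA: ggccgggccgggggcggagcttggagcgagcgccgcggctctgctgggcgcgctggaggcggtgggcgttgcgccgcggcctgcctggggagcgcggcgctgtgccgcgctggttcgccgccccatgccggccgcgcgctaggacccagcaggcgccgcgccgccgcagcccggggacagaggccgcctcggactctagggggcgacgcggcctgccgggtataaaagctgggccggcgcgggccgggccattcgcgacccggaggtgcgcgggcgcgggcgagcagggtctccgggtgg
IRF8 (chromosome 16, 85899162 to 85922609, plus strand) likewise had 0 peaks of any kind and no coding neighbour. Its nearest H3K27ac peak, at 98858 bp, was 200 bp wide with 5.21-fold enrichment, and the nearest NKX2-1 antibody call was 1860 kb away.

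MPO (chromosome 17, 58269855 to 58280935) had no peak in its body and 2 H3K27ac peaks in its window. The smaller (58284055 to 58284419, 365 bp, 5.94-fold) lay 3120 bp from the gene in no annotated gene. The larger was the strongest of all 11 peaks: 58330313 to 58333812, 3500 bp wide, 15.7-fold, rank 108 of 9857. It began 49378 bp from MPO, just inside the limit of 50 kb, and its summit at 58331899 lay outside the window. The nearest H3K27ac peak beyond the limit was 53078 bp from MPO. No NKX2-1 antibody library had a call in the window, and the nearest, at 814 kb, was also in the WT-only and combined lists.

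That peak covered MIR142 and its host gene MIR142HG, not MPO. MIR142 encodes a microRNA made throughout the blood lineages, T cells included. Its mature sequences, from RefSeq, are shown with the seed, bases 2 to 8, in capitals. They lie on the minus strand at chr17:58331245-58331267 and chr17:58331283-58331303.
hsa-miR-142-3p: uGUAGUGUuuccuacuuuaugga
hsa-miR-142-5p: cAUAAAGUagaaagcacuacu
The 2 seeds differ. With the summit required inside the window, MPO kept its smaller peak alone.

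**Figure D2:**
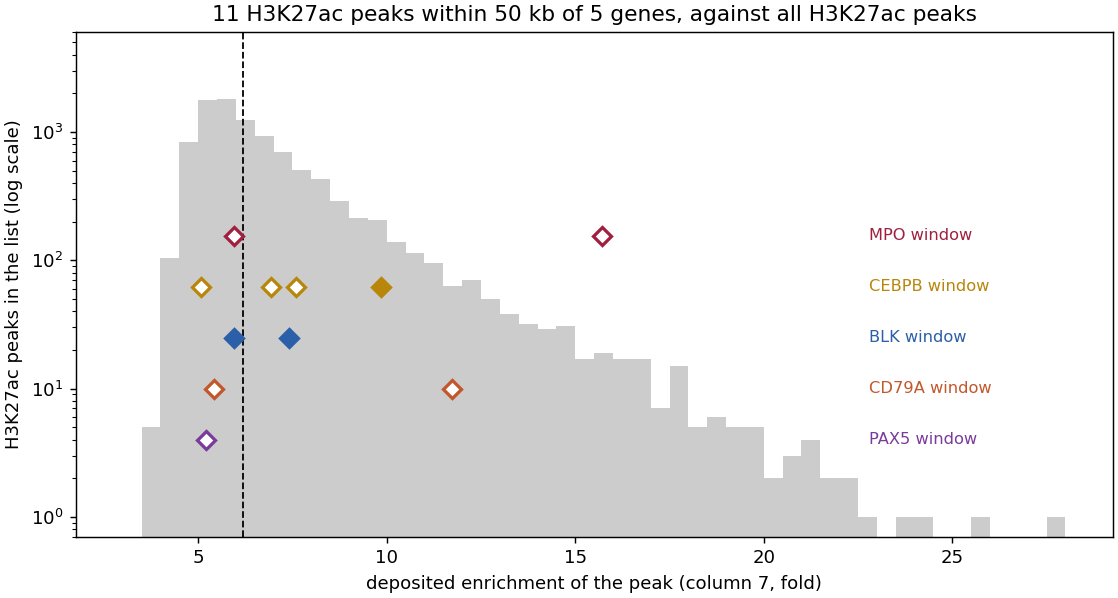
Deposited enrichment (column 7, fold) of the 11 H3K27ac peaks in the windows (diamonds, 1 row per gene, height arbitrary; filled where the peak touches the gene) over a histogram of all 9857 peaks on a log scale, with the list median as a dashed line. The MPO window's MIR142 peak at 15.7-fold and the CD79A window's RPS19 peak at 11.7-fold stand to the right, and both are open diamonds.

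By enrichment, 6 of the 11 peaks lay above the list median of 6.19-fold and 5 below it. Their median was 6.92-fold and their range 5.08 to 15.7. Peaks with a −log10 q of 10 or more remained near CD79A, CEBPB and MPO, 1 each, and near 11.1% of protein-coding genes. Of these 3, the peak at CEBPB was the 1 that touched the lineage gene. H3K27ac covered 1.87% of the CEBPB window, 1.61% of that of CD79A, 0.889% of that of MPO, 0.56% of that of BLK and 0.0664% of that of PAX5. Of the 5 genes with another protein-coding gene in the window, 4 had an H3K27ac peak there, the exception being CD79B. Of the 4 with none, PAX5, EBF1, CEBPA and IRF8, 1 had a peak, PAX5. This split was not made over all protein-coding genes and was not tested. At BLK and CEBPB a peak lay in the gene itself.

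The other lineage genes examined gave a like picture, with exceptions. Of 22 further B-cell genes, 10 (45.5%) had an H3K27ac peak in the window and 3 (13.6%) in the body. Of 22 further myeloid genes, 14 (63.6%) had a peak in the window and 3 (13.6%) in the body. Against these, 13 of 15 T-cell markers (86.7%) had a peak in the window and 11 (73.3%) in the body, with 0 at CD2 and CD28. The T-cell markers with the most peaks in the window were LEF1 with 16, TCF7 with 15 and LCK with 8. By peaks in the body, the label of a T-cell line was matched by most of its markers. Over a promoter window, a peak lay at 5 of the 11 T-cell markers that had such a window (45.5%). It lay at 0 of 6 of the 9 genes, 2 of 16 further B-cell genes (12.5%) and 2 of 18 further myeloid genes (11.1%). The median number of peaks per window was 5 for the T-cell markers, 1 for the 9 genes, 0 for the further B-cell genes, 1 for the further myeloid genes and 0 for all protein-coding genes. Median window lengths were 132.4, 111.1, 131.3, 108.1 and 124.1 kb in the same order. CD3D, CD3E and CD3G share peaks, so these 15 genes are not independent.

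**Figure D3:**
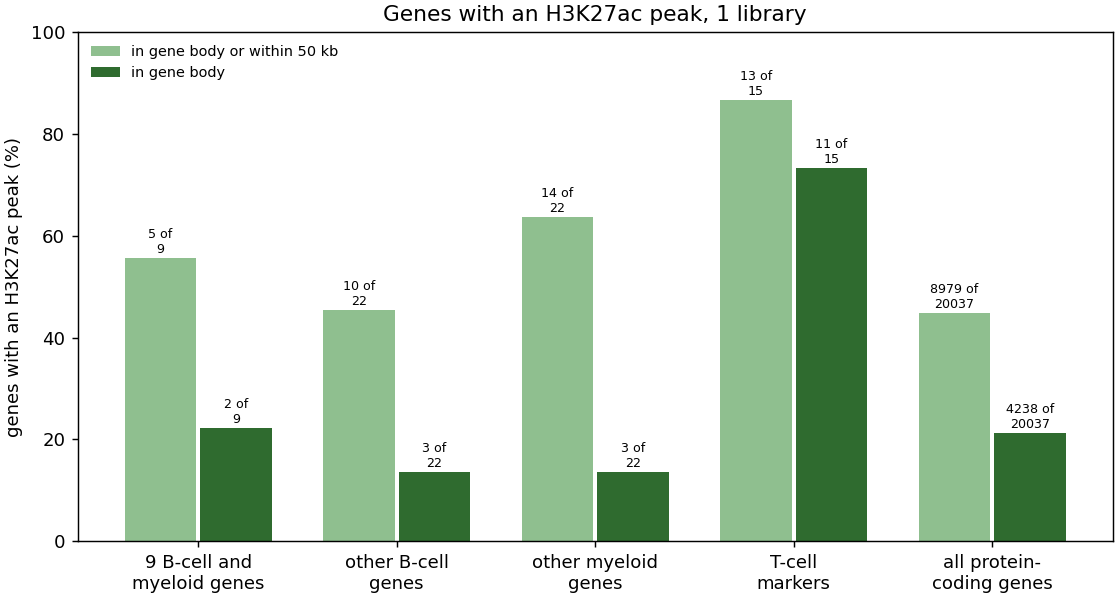
Share of genes (%) with an H3K27ac peak in the gene body or within 50 kb (light) and in the gene body (dark), for each gene list, with the numbers above the bars; 1 library, no error bars. The 9 genes, at 5 of 9 and 2 of 9, sit close to all protein-coding genes, and the T-cell markers are at 13 of 15 and 11 of 15.

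Among the further B-cell genes, the surrogate light chain genes of the pre-B-cell receptor had H3K27ac in the gene. IGLL1 had 14 peaks in its window, 5 of them in the body, the strongest at chromosome 22, 23579682 to 23581657 (1976 bp, 10.1-fold). VPREB1, its partner, had 3, with 1 over the gene (22244719 to 22245392, 674 bp, 6.68-fold). Both promoter windows were touched by a peak. They were the 2 of 16 further B-cell genes (12.5%) with such a peak, against 10.4% of protein-coding genes. BLNK, a B-cell adaptor, had 4 peaks in the window and 0 in the body. BCL11A, a factor of lymphoid progenitors, had 1 peak in the body with 4.72-fold enrichment.

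Among the further myeloid genes, SPI1, which encodes the factor PU.1, had 6 peaks in its window and 3 in its body, the strongest of those at chromosome 11, 47359173 to 47359817 (645 bp, 7.72-fold). GFI1, a repressor used in both granulocytes and thymocytes, had 5 and 4, the strongest at chromosome 1, 92484663 to 92486028 (1366 bp, 10.8-fold). FCGR1A had 7 peaks in the window and 0 in the body, and the strongest of these (19.4-fold) lay over the histone genes H4C15 and H2AC19. CTSG, a granule protease gene, had 1 peak in its body with 8.14-fold enrichment.

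A call of any of the 8 NKX2-1 antibody libraries lay in the window of 2 of the 9 genes (22.2%), CD79A and BLK, against 5.61% of protein-coding genes. A knockout call lay near 1 of the 9 (3.39% of protein-coding genes), a WT call near 1 (3.38%), a WT-only region near 1 (2.40%) and a combined-list peak near 0 (1.68%). With 9 genes these shares move by 11.1 percentage points per gene. The further B-cell genes had a call near 2 of 22 (9.09%), the further myeloid genes near 0 of 22 and the T-cell markers near 2 of 15 (13.3%). None of the 9 genes was called in 3 or 4 libraries of a genotype and in none of the other. In the WT direction this pattern held for 53 genes (0.265% of protein-coding genes, 4.72% of the 1124 with a call). In the knockout direction it held for 35 (0.175% and 3.11%).

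Near IRF4, a factor of B-cell and plasma cell differentiation, calls came from both genotypes: C12, C15, S04 and S36 had 2, 2, 2 and 0, and WT10, WT13, WT28 and WT30 had 1, 0, 1 and 0. They lay about 20 kb from the gene, between 371318 and 372355 on chromosome 6, with 4.43-fold to 8.44-fold enrichment. Fisher's exact test gave p = 1 for IRF4.

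Per library, the number of peaks in the 9 windows was 0, 1, 0 and 2 in C12, C15, S04 and S36 and 1, 0, 0 and 0 in WT10, WT13, WT28 and WT30. The means were 0.75 ± 0.957 (SD, n = 4) in knockout and 0.25 ± 0.5 (SD, n = 4) in WT clones, and the groups overlapped. The difference of 0.5 peaks was smaller than the spread within the knockout clones. Of the 4 calls, 3 came from S36 and WT10. These 2 libraries also had the largest shares of all protein-coding genes with a call in the window, 3.19% and 2.98%, against 0.599% to 1.44% in the other 6. Their part in the calls near CD79A and BLK was not tested. Without both, CD79A was the 1 gene of the 9 with a call.

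**Figure D4:**
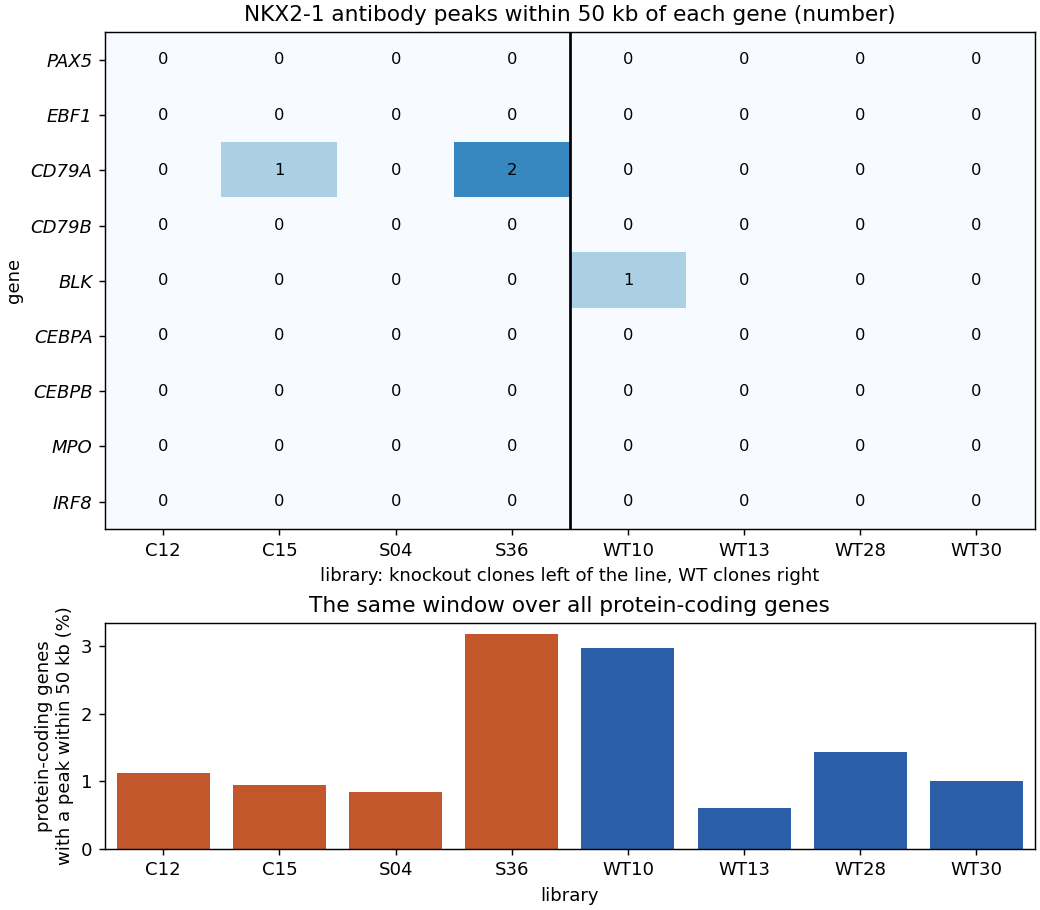
Number of NKX2-1 antibody peaks in the window of each gene and library (upper panel, darker for more peaks) and the percent of all protein-coding genes with a peak in the same window in each library (lower panel). CD79A has 1 call in C15 and 2 in S36, BLK has 1 in WT10, and S36 and WT10 are the highest bars at 3.19% and 2.98%.

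Over all protein-coding genes, 0 of 1124 passed Fisher's exact test after Benjamini-Hochberg adjustment (0.0%), and 24 (2.14%) had an unadjusted p under 0.05. With 4 libraries against 4 the smallest possible p is 0.0286, and the smallest adjusted p over the 1124 genes was 1. A p no lower than 0.0286 passes adjustment over 1124 genes only if most of them reach it. The count of 0 therefore says nothing about single genes. An exact permutation test on the number of peaks, with the same smallest p, also gave 0, with 24 genes under 0.05 before adjustment.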

How the data were processed

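The genome build was hg38, and FastQC, Bowtie2, SAMtools, deepTools and MACS2 were used, per the submitters' processing notes. Their settings, and the control behind the peak calls, are not given in the sources used here. Deposited were peaks per library, a combined list and a WT-only list. Each deposited peak carries a fold enrichment ratio (column 7), a −log10 p and a −log10 q, a score and a summit offset. The deposited score and −log10 p were not used. The WT-only list holds positions alone. Enrichment values are the authors' and only rank peaks within a list. Depth is unknown and limits what could be called.

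Analysis kept chromosomes 1 to 22, X and Y, with 742 to 1144 per NKX2-1 antibody library; no 2 of these libraries had the same list. An overlap of 1 bp with a window counted, and coordinates are 1-based. Genes, promoter windows (6 of the 9 genes matched; CD79B, BLK and MPO did not) and microRNAs came from RefSeq GRCh38.p14 tables. The gene table has no exons, so exonic or intronic position was not determined. The number of libraries with a call was compared per gene by Fisher's exact test, two-sided, adjusted over all genes with a call, in Python 3.11.15 with scipy 1.17.1; code was tested on simulated data. Alternatives were windows of 10 kb, 100 kb or the body alone, a −log10 q of 10 or more, summits in the window, and each clone left out. The genes and lists were chosen with earlier results of these data known. All 9 genes are named; of each other list, the 3 genes with the most H3K27ac peaks, and BCL11A, CTSG, IRF4, CD2, CD28, CD3D, CD3E and CD3G, chosen after their values were seen. The list counts include 1 further B-cell gene whose own values are not reported here.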

Additional observations from a re-analysis of the deposited data

Results flagged for a closer look

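In a group of 4 libraries, a value was examined again when its gap to the nearest other, as a share of the group's range, exceeded the 95% critical value of Dixon's test, which chance gives in about 1 of 20 groups of continuous values. Counts of 0 and 1 meet this whenever 1 library differs from the other 3. Among knockout clones, S36 had a call in the window of 3.19% of protein-coding genes, apart from the other 3, and 0 peaks near IRF4 where C12, C15 and S04 had 2 each. Among WT clones, WT10 had 1 peak in the windows of the 9 genes, the peak at BLK, where the others had 0.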

How the results depend on the processing

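Of 55 alternative values over 6 results, 49 stayed within 1.5 times the reported count or within the spread between clones. The counts of 0 genes past adjustment are among the 49 and could hardly have moved. The number of the 9 genes with H3K27ac, 5 as reported, was 2 with the gene body alone and 3 at a −log10 q of 10 or more. The number with an NKX2-1 antibody call, 2 as reported, was 1 with the body alone, 1 at a −log10 q of 10 or more, and 1 to 2 with a clone left out, the lower value being without WT10. With WT10 and S36 both left out, a setting chosen after seeing the data, it was 1. The difference in peaks per library, WT minus knockout, was −0.5 and turned to 0.25 with the body alone; with a clone left out it ran from −0.75 to −0.0833, the last without S36. No gene passed adjustment in any setting run, an outcome that the smallest possible p all but fixed in advance. With a clone left out, up to 60 genes, without WT13, were at an unadjusted p under 0.05. Without WT10 and S36 the test is 3 against 3 and cannot give a p below 0.1, so its count of 0 says nothing. Summits in WT-only regions, which carry none, were not used.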
